A study of Mus musculus with 9 samples.

Results

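Macrophage identity genes are genes whose transcripts mark macrophages, the phagocytes of the innate immune system, against the other cells of a tissue. The 10 genes described here (Csf1r, Adgre1, Ptprc, Mrc1, Cd14, Cd68, Lyz2, C1qa, C1qb and C1qc) were taken from the count table by their gene names, and all 10 were found among its 55401 genes. The table holds RNA-seq counts from 9 libraries of neonatal mouse ventricular myocytes, heart muscle cells isolated from wild-type C57BL/6J pups on day 1 of life, with 3 libraries in each of 3 groups. Control cultures stayed in normal oxygen in DMEM with 10% fetal bovine serum. Hypoxia cultures were washed, placed in DMEM without glucose or serum and kept for 6 h in a sealed chamber with an oxygen absorber. Hypoxia + rSRGN cultures were treated in the same way with recombinant serglycin (SRGN, a secreted proteoglycan) in the medium. Low oxygen, the missing glucose and the missing serum therefore cannot be told apart in any comparison with control. The labels do not say whether the libraries of a group came from separate isolations, so p-values measure the spread between these libraries, which may be technical.

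The neonatal heart holds resident macrophages that are seeded before birth, and isolation of its myocytes carries some of them into culture. Macrophages depend on colony-stimulating factor 1, which signals through the receptor encoded by Csf1r, and on the transcription factor PU.1, encoded by Spi1. They take up dead cells and debris, digest them in lysosomes, and secrete complement C1q, a protein assembled from 3 kinds of chain.

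The C1q genes lie side by side on the minus strand of chromosome 4 (GRCm38), where C1qb, C1qc and C1qa span 18675 bases from 136880129 to 136898803. Lyz2 lies on chromosome 10 between 117277331 and 117282321, Cd68 on chromosome 11 between 69664213 and 69666153, and Ptprc on chromosome 1 between 138062861 and 138175708. Mrc1 lies on chromosome 2 between 14229392 and 14332057 and Adgre1 on chromosome 17 between 57358691 and 57483527. Since PU.1 recognises purine-rich sites built around GGAA, the 250 bases before the RefSeq start (GRCm38.p6) were searched on both strands for GAGGAA, with TATAAA as a second and non-overlapping motif. Promoters were read for 6 members. GAGGAA was present for 5 of them (Cd68, C1qb, C1qc, Mrc1 and Ptprc), while 23.3% of all 32851 promoters held it and 12.4% held TATAAA, which was found for 1 of the 6 members (Ptprc). The last base of the match lay 25 bases before the start for C1qb, 188 for C1qc and 220 for Cd68, and Mrc1 held 3 matches at 30, 162 and 175 bases. The Lyz2 window, that of the most abundant member, did not hold these letters. A match describes the letters only and is not a shown binding site. The upstream bases of 5 members are given 5′ to 3′ on the strand of the gene, leaving out bases inside the annotated gene. This took 151 bases from C1qc, 49 from Lyz2 and 22 from Mrc1. The distances above count from the RefSeq start, not from the end of the bases given. Capitals mark GAGGAA or its reverse complement TTCCTC, and the C1q pair is shown as neighbours in one cluster.
C1qb (chr4:136886201-136886450, minus strand): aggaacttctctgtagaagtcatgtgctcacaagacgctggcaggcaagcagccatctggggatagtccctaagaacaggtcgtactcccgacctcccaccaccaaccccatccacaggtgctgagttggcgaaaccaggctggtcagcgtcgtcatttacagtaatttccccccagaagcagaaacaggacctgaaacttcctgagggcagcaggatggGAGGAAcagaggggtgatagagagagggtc
C1qc (chr4:136893066-136893164, minus strand): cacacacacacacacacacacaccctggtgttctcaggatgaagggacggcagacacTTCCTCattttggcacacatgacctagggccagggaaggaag
Cd68 (chr11:69666171-69666420, minus strand): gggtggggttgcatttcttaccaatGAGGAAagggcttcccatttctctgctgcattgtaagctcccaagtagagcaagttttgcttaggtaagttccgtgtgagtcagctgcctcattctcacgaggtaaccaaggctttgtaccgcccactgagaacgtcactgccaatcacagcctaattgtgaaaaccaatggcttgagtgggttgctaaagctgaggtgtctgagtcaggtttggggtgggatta
Mrc1 (chr2:14229164-14229391, plus strand): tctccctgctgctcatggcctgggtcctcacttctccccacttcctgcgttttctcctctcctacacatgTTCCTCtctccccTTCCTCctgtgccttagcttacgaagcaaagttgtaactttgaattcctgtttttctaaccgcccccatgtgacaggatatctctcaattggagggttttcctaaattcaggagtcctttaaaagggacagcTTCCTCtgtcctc
Lyz2 (chr10:117282322-117282522, minus strand): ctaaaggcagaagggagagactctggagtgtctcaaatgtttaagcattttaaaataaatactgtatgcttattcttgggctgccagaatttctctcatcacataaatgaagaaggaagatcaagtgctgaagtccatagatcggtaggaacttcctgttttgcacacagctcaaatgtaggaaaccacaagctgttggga

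Across the 9 libraries, 16583985 to 22781557 fragments were assigned to genes, with 21669017 to 22781557 in control, 16583985 to 18148474 in hypoxia and 16640239 to 20826701 in hypoxia + rSRGN. One count was thus a small unit, and the members with single-digit counts are described by raw counts. The label of the cells was met by their markers, since the 12 cardiomyocyte genes (Myh6, Tnnt2 and others) summed to 44160 to 52200 CPM, a count scaled to the library total, in control. All 10 macrophage identity genes were also counted in every control library. Neutrophil genes were low, with sums over 11 genes of 0.554 to 0.89 CPM in control, 1.03 to 1.81 in hypoxia and 0.799 to 2.35 with rSRGN. Ly6g, Retnlg and Mpo had no count in any library, and the only tested gene, Mmp8, had 6 to 15 counts in control and 15 to 20 in hypoxia and was not called. Lymphocyte genes summed to 0.445 to 0.483 CPM in control and 0.965 to 1.66 in hypoxia, with no count for Cd3d, Cd3g and Gzma. Cd79a, a chain of the B-cell receptor and the only tested gene of that list, rose from 1, 7 and 1 counts to 21, 23 and 15 (log2 fold change 2.95, adjusted p 0.000193 in edgeR), though it was tested only because the hypoxic groups were high.

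The first comparison asked how oxygen, glucose and serum deprivation changed these genes. All 10 fell in hypoxia, from a 1.97-fold lower level of Csf1r to 1 remaining fragment of C1qa, and in none of the 10 did a hypoxia library reach the lowest control library. A gene was called where the adjusted p of edgeR's quasi-likelihood test over 16762 genes was below 0.05 and the fold change at least 1.5. Of all tested genes, 25.1% were called lower and 35.3% had hypoxia libraries wholly below control, so that the direction was common in the table, and 26.4% were called higher. The median log2 fold change of the members was -4.12, beside 0.05 over all genes. The filter on low counts bears on this number. Adgre1, C1qa, C1qb, C1qc and Ptprc reached its cutoff in control libraries alone, and Mrc1 in 1 hypoxia and 1 hypoxia + rSRGN library beside control, fewer than the 3 libraries needed. These 6 were tested only because control was high, so the count of 10, the median and the p-values of these 6 say little beyond the raw counts. Fewer macrophages and less of these transcripts per macrophage cannot be told apart in bulk RNA.

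**Figure D1:**
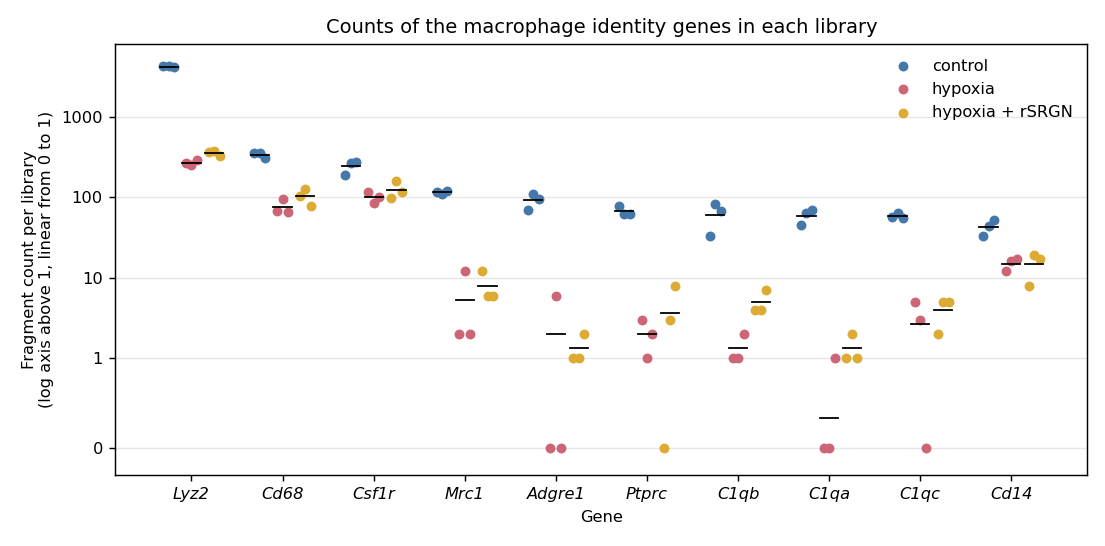
Raw fragment counts (vertical axis, logarithmic above 1 and linear from 0 to 1) of the 10 macrophage identity genes in each of the 9 libraries, with points coloured by group and a line at each group mean. Every control point lies above every hypoxia point of its gene, and 6 genes sit at 12 counts or fewer in all hypoxic libraries.

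Among the surface receptors, Csf1r, the receptor for colony-stimulating factor 1 and interleukin 34, changed least. It had 187, 268 and 271 counts in control and 117, 84 and 101 in hypoxia. The groups were apart, and the mean fell from 11.2 ± 2.47 to 5.66 ± 0.734 CPM (here scaled by TMM, SD, n = 3). The log2 fold change was -0.98 ± 0.18 (SE), with an adjusted p of 4.36e-05 in edgeR. In 873 bases its exons overlap those of Hmgxb3 on the other strand, and without strand in the counting the fragments there cannot be assigned to one of the genes. Hmgxb3 had 763 to 905 counts in control and 510 to 616 in hypoxia, a log2 fold change of -0.28. Pdgfrb, a receptor gene of fibroblasts and pericytes on the same strand, ends 15536 bases upstream, shares 0 exon bases with Csf1r and rose by 0.67. What part either neighbour had in the Csf1r counts was not tested.

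Adgre1 encodes F4/80, the surface protein most used to identify mouse macrophages. It fell from 70, 111 and 95 counts in control to 0, 6 and 0 in hypoxia. All hypoxic fragments came from hypoxia replicate 2, and the other two libraries had none. The log2 fold change was -5.15 ± 0.58 with an adjusted p of 5.54e-08 in edgeR. Adgre1 was tested only because control was high, so the counts and not the test carry this difference. Without hypoxia replicate 2 the fitted value was -9.39, and 0 counts in the remaining hypoxia libraries gave a level at least 50.7-fold lower, computed against 3 counts over the group. Without hypoxia replicate 1 it was -4.56.

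Ptprc encodes CD45, the phosphatase found on all leukocytes. Its counts were 78, 62 and 62 in control and 3, 1 and 2 in hypoxia, with a log2 fold change of -4.71 ± 0.59. Mrc1, the mannose receptor CD206, was steady in control at 115, 111 and 121 counts and had 2, 12 and 2 in hypoxia. It had a log2 fold change of -4.12 ± 0.44, or of -5.51 without hypoxia replicate 2, which held most of the remaining fragments. Thus CD45 and CD206 transcripts were at or below 12 counts in each hypoxia library.

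Cd14 encodes the co-receptor that passes lipopolysaccharide to Toll-like receptor 4. It was the least abundant member in control by counts and CPM, with 33, 44 and 52 counts, and had 12, 16 and 17 in hypoxia. The log2 fold change of -1.22 ± 0.39 had an adjusted p of 0.00786, the highest among the members. Over the alternatives tried, this p ranged from 0.0046 to 0.0486. Cd14 and Csf1r were therefore lower with a smaller change than Adgre1, Ptprc or Mrc1, though differences between genes in their change were not tested one by one.

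Lyz2 and Cd68 belong to the digestive equipment of the macrophage. Lyz2, the lysozyme that cleaves bacterial cell walls, had 4232, 4263 and 4095 counts in control and 264, 253 and 293 in hypoxia. Its mean fell from 193 ± 3.94 to 15.3 ± 1.5 CPM, a 12.7-fold lower level with a log2 fold change of -3.67 ± 0.09 and an adjusted p of 1.47e-18. The neighbouring paralogue Lyz1, 5475 bases away, had 0 to 12 counts in any library. Both genes are similar enough that fragments could be exchanged or left out, which was not tested and makes the Lyz2 counts uncertain. Cd68, a glycoprotein of the lysosome membrane, had 355, 356 and 307 counts in control and 67, 94 and 66 in hypoxia. It was 3.65-fold lower, with a log2 fold change of -1.87 ± 0.17. The abundant translation factor gene Eif4a1 ends 782 bases upstream of Cd68 on the same strand and rose by 0.65 on the log2 scale, from 7716 to 8403 counts in control to 9554 to 11438 in hypoxia. Its part in the Cd68 counts was not tested.

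The 3 C1q chains start the classical complement pathway and are among the most macrophage-restricted transcripts of the mouse. C1qa had 45, 64 and 69 counts in control and 0, 0 and 1 in hypoxia. With 1 hypoxic fragment in all, the ratio of the sums was 145-fold lower with an exact 95% interval of 25.8 to 5776, which covers counting error only. Without hypoxia replicate 3, the source of that fragment, the fitted value moved from -6.77 to -8.76. A bound computed against 3 counts in place of 0 was then 32.7-fold lower, which leaves out the spread between libraries. C1qb had 33, 83 and 67 counts in control and 1, 1 and 2 in hypoxia, with a log2 fold change of -5.11 ± 0.60. C1qc had 57, 63 and 56 counts in control and 5, 3 and 0 in hypoxia, with a log2 fold change of -4.12 ± 0.54 that was -4.86 without hypoxia replicate 1. Together the chains had 537 fragments in the control libraries and 13 in the hypoxia libraries. Their proportions in control were within a narrow range for C1qa, at 30.5% to 35.9% of C1q fragments, and wider for C1qb (24.4% to 39.5%) and C1qc (29.2% to 42.2%).

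**Figure D2:**
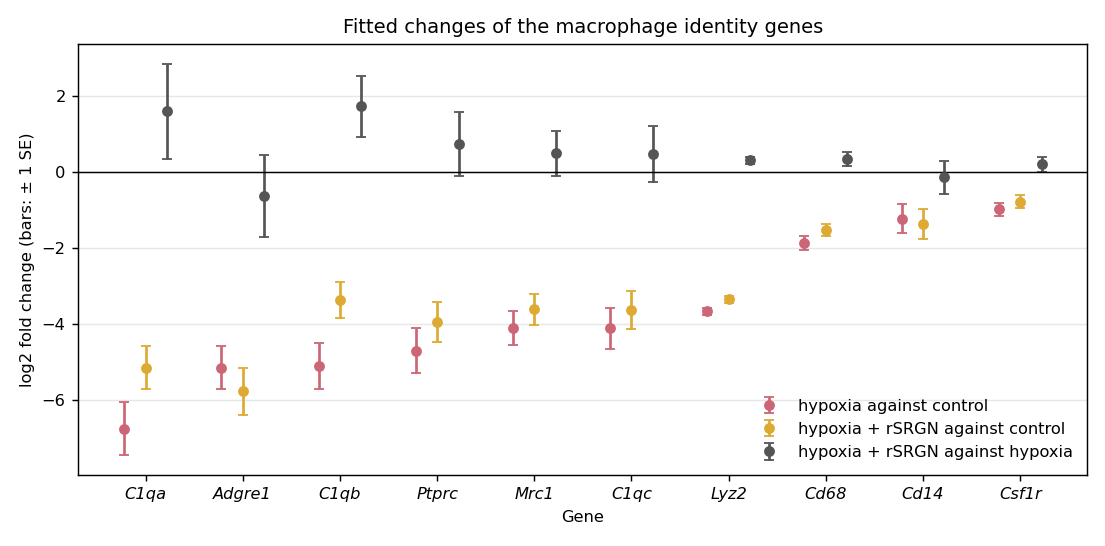
Fitted log2 fold changes (vertical axis, bars ± 1 SE) of each member in the 3 comparisons, ordered by the change in hypoxia against control. Both comparisons with control lie below 0 for all 10 genes and share the control libraries, the values of hypoxia + rSRGN against hypoxia lie between -0.63 and 1.74, and the C1qa values rest on 1 fragment in hypoxia.

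The order of the mean levels per kilobase of exon also shifted. In control, Lyz2 stood at 147 ± 3.00 CPM per kilobase and Cd68 at 12.4 ± 0.545, each clear of the next. C1qa (2.64), C1qb (2.59), Csf1r (1.94), C1qc (1.40), Adgre1 (1.31), Cd14 (1.15) and Mrc1 (0.839) followed, and each of them overlapped its neighbour in this order. Ptprc came last at 0.169 per kilobase of a long annotated exon length. In hypoxia, Lyz2 (11.6), Cd68 (3.41), Csf1r (0.981) and Cd14 (0.492) were in separate ranges. The remaining 6 had means below 0.08, with single libraries up to 0.139 (C1qc), and overlapped with their neighbours. By mean, Csf1r thus followed Cd68 in hypoxia, while in control C1qa and C1qb came between them in ranges that overlapped that of Csf1r. Its share of the members' fragments was 3.59% to 5.22% in control and 17.9% to 24.8% in hypoxia, and that of Cd68 went from between 5.91% and 6.82% to between 13.6% and 20%. The Lyz2 share went from between 78.6% and 81.3% to between 53.8% and 60.5%. Each of these had an exact two-sided permutation p of 0.1, the smallest that 3 against 3 libraries allow, and an adjusted p of 0.15 over 12 such tests.

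**Figure D3:**
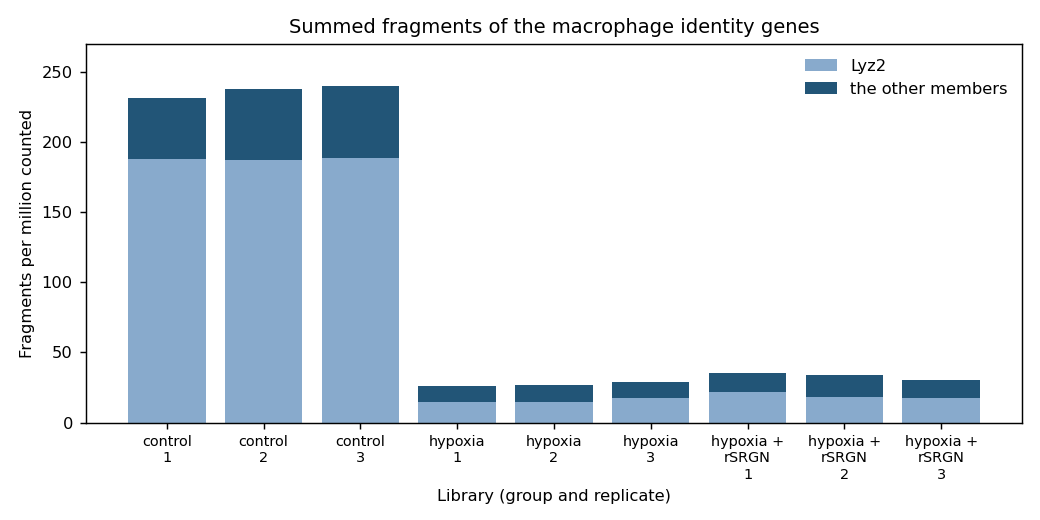
Summed fragments of the 10 macrophage identity genes in CPM of the library total (vertical axis) in each library, with Lyz2 in light and the other members in dark blue. The control bars stand at 232 to 240 CPM, the hypoxia bars at 25.9 to 29.2 and the hypoxia + rSRGN bars at 30.2 to 35.5.

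The next comparison asked whether rSRGN during hypoxia changed these genes. None of the 10 members was called in edgeR, beside 3.13% of all tested genes. The unadjusted p was below 0.05 for 2 members, Lyz2 and C1qb, against 29.4% of all genes, and DESeq2 called 0 of the 5 members for which it gave an adjusted p, C1qb not among them. The fitted value was above 0 for 8 members and below 0 for 2, against 53.7% of all genes below 0, with a median of 0.41 beside -0.03 over all genes. The sign turned when a single library was left out for 4 of the 10, Adgre1 (3.60 without hypoxia replicate 2), C1qc (-0.0679 without hypoxia replicate 3), Cd14 (0.10 without hypoxia + rSRGN replicate 1) and Ptprc (-0.47 without hypoxia + rSRGN replicate 3).

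Lyz2 came nearest to a call. It had 264, 253 and 293 counts in hypoxia and 362, 375 and 327 in hypoxia + rSRGN, so that all treated libraries were above all hypoxia libraries. The level was 1.24 times that of hypoxia, with a 95% interval from 1.08 to 1.43 and an adjusted p of 0.034. The adjusted p ranged from 0.00976 to 0.217 over the alternatives, and the change was under the fold limit of 1.5. C1qb had 1, 1 and 2 counts in hypoxia and 4, 4 and 7 with rSRGN, again without overlap. Its ratio of sums was 3.53 with an exact 95% interval of 1.13 to 14.6 for counting error, and its adjusted p was 0.156. Groups that did not overlap in this direction made up 16.5% of all genes.

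The other members overlapped between the treated and untreated hypoxic cultures. Csf1r had 97, 158 and 116 counts with rSRGN, a ratio of 1.15 to hypoxia with a 95% interval of 0.880 to 1.51. Cd68 had 103, 126 and 78 counts and a ratio of 1.27 with an interval of 0.969 to 1.67. Cd14 had 8, 19 and 17 counts and a ratio of 0.910 with an interval of 0.492 to 1.68. The intervals of Csf1r, Cd68 and Cd14 each contain 1 and reach past the 1.5-fold limit on at least one side. The remaining 5 had at most 12 counts in any hypoxic library. Mrc1 had 12, 6 and 6 counts with rSRGN, and Ptprc had 0, 3 and 8. Adgre1 had 1, 1 and 2, C1qa had 1, 2 and 1, and C1qc had 2, 5 and 5. A ratio for these depended on a few fragments. For C1qa, with 1 count in hypoxia and 4 with rSRGN, it was 3.77 with an exact interval from 0.373 to 186. No adjusted p of these 5 members passed the threshold, which does not show that the groups were alike.

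Set against control, the rSRGN cultures again had lower values for all 10 members. The range of log2 fold changes was -5.78 (Adgre1) to -0.78 (Csf1r), and the median was -3.50 beside 0.01 over all genes. Called lower were 10 of 10, against 24.7% of all genes, and 36.6% of all genes had their rSRGN libraries wholly below control. The same 6 members were tested here only because control was high, so this count and median carry the same limit. Lyz2 was at 9.78% of control with rSRGN and 7.88% without, and Cd68 at 34.8% and 27.4%. For Csf1r the levels were 58.4% and 50.7% of control, and for Cd14 they were 39.0% and 42.8%. The Ptprc value of -3.96 became -5.19 without hypoxia + rSRGN replicate 3, the library with 8 of its 11 fragments. These values share the control libraries with the first comparison and are given side by side only.

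Other macrophage and myeloid genes mostly fell with the members in hypoxia. Of 20 listed genes 18 were tested, 13 fell, 2 rose and 3 were not called, with a median of -3.27. Of the 13, 7 passed the filter only because control was high, so this count and median carry the limit given for the members. Ctss, the lysosomal protease cathepsin S, fell from 1171, 1073 and 1045 counts to 46, 63 and 24 (log2 fold change -4.33). Mpeg1, which encodes the pore-forming perforin-2 of phagocytes, fell from 422, 445 and 537 counts to 21, 10 and 17 (-4.58). Both ranges lay far apart. Mertk, a receptor for dying cells that is not restricted to macrophages, rose from between 902 and 1025 counts to between 1522 and 1916 (1.17).

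Cx3cr1, the fractalkine receptor of monocytes and macrophages, went against the list. It had 3, 1 and 14 counts in control, 2584, 1417 and 2099 in hypoxia and 2040, 2450 and 2028 in hypoxia + rSRGN. The log2 fold change was 8.65 ± 0.28 in hypoxia against control, with an adjusted p of 4.35e-17, and 0.02 in hypoxia + rSRGN against hypoxia. It was tested only because the hypoxic groups were high, so the counts and not the test carry this difference. In the annotation of the count table the gene runs from 119901616 to 120069879 on chromosome 9 and spans other genes. Its exons share 78 bases with Gm33858, a gene with at most 1 count in any library, and 0 with each of the other genes in that span. In hypoxia, Cx3cr1 had more counts than all 10 members together, which summed to 470 to 484 per hypoxia library.

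Genes of resident macrophages and of monocytes were mixed in level and direction, with 6 of 8 and 4 of 10 tested. Timd4 and Cd163, which mark resident macrophages, and Ccr2 and Ly6c2, which mark monocytes, had at most 2 counts in any library. Of 6 tested resident genes 2 fell and 2 rose. Stab1, a scavenger receptor shared with endothelium, fell from 213, 341 and 260 counts to 102, 80 and 84 (log2 fold change -1.32), and Folr2, a folate receptor, fell from 21, 48 and 28 to 17, 12 and 5 (-1.22). Cbr2 rose by 1.49 and Pf4, a chemokine gene, by 1.00. Of 4 tested genes of monocytes and antigen presentation 2 fell, namely H2-Eb1, a class II chain, from 175, 169 and 131 counts to 11, 15 and 6 (-3.58) and Ciita, the class II transactivator, from 15, 28 and 37 to 2, 1 and 3 (-3.38), which was tested only because control was high.

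Genes that act directly with the members moved in both directions. Spi1, encoding PU.1, had 60, 50 and 49 counts in control and 3, 1 and 0 in hypoxia (log2 fold change -4.91), and was tested only because control was high. Among the other listed factors Maf, Cebpb, Runx1 and Tfec rose, and these are also used by other cells. The ligands of the Csf1r receptor rose. Csf1 had 6013, 6652 and 5496 counts in control and 9961, 8822 and 9262 in hypoxia (0.92), and Il34 had 51, 44 and 34 in control and 94, 101 and 134 in hypoxia (1.65). Of the granulocyte-macrophage factor receptor, the alpha chain Csf2ra rose by 1.02 and the shared beta chain Csf2rb fell by 4.60 on the log2 scale, from 107, 135 and 152 counts to 3, 6 and 4. Of 5 tested genes of colony-stimulating factors and their receptors, 4 rose and 1 fell, but Csf2rb was tested only because control was high and Csf3, one of the 4, only because the hypoxic groups were.

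The complement list held changes in both directions. C1ra and C1s1, the proteases that join C1q in the first complement complex, rose by 1.26 and 1.15, and the C1 inhibitor gene Serping1 rose by 1.27. C1ra had 153, 165 and 168 counts in control and 283, 299 and 369 in hypoxia, while C1s1 had 185, 132 and 142 in control and 276, 318 and 235 in hypoxia. The receptors of complement fragments, C3ar1 and C5ar1, fell, with log2 fold changes of -4.31 and -4.43. Of 11 tested genes beside C1q, 6 rose, 2 fell and 3 were not called. Of these, C5ar1 was tested only because control was high, and Cfd, one of the 6, only because the hypoxic groups were. For the partners of CD14, Tlr4 and its co-receptor Ly96 rose by 0.97 and 0.99, and Cd180 fell by 0.73, with 6 of 9 not called. Mrc2, the paralogue of Mrc1 that binds collagen in fibroblasts, rose by 1.02 from 3517, 4066 and 3906 counts to 6704, 6284 and 6022. Among 9 tested paralogues 5 rose and 1 fell.

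**Figure D4:**
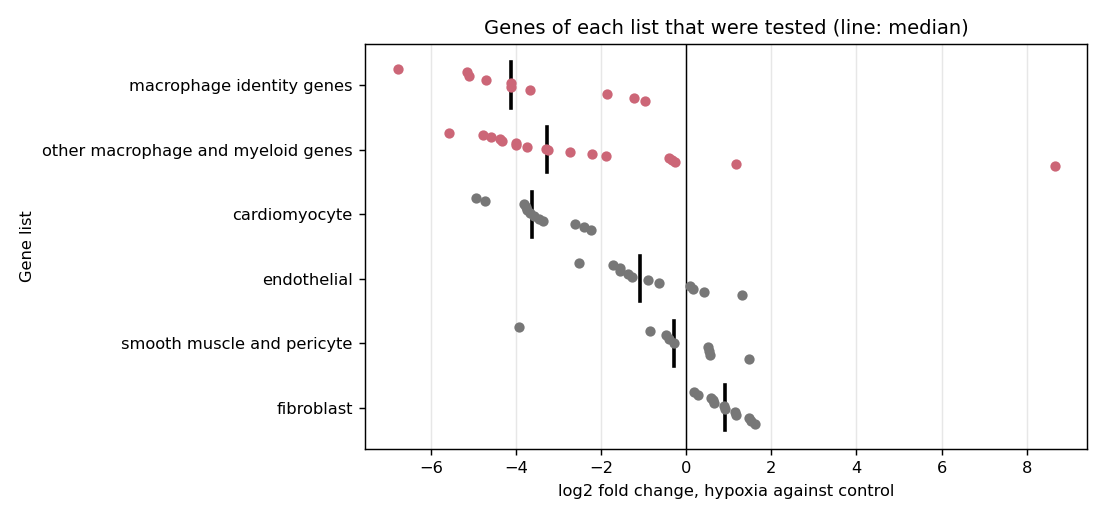
Log2 fold changes in hypoxia against control (horizontal axis) of the tested genes in 6 lists, with one point a gene and a line at each median. Macrophage identity, other macrophage and cardiomyocyte genes have medians of -4.12, -3.27 and -3.62, and fibroblast genes one of 0.90. However, 6 of the 10 members and 7 of the 18 other macrophage genes were tested only because control was high. The point at 8.65 is Cx3cr1.

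Markers of other cell types also differed between the groups. The 12 cardiomyocyte genes all fell in hypoxia, with a median of -3.62, and their sum went from between 44160 and 52200 CPM to between 4104 and 6279. With rSRGN it was 7768 to 8443, and 10 of the 12 were called higher than in hypoxia, beside 2.27% of all genes. Fibroblast genes went the other way, with 9 of 12 higher and sums of 13100 to 14710 in control and 27590 to 31420 in hypoxia. Of 12 endothelial genes, 8 were lower, 2 of them (Vwf and Cldn5) tested only because control was high, and 1 was higher, while their sum was 256 to 278 CPM in control and 459 to 562 in hypoxia. The exception was Eng, the co-receptor endoglin that fibroblasts also express, with 3495 to 4000 counts in control and 6966 to 8218 in hypoxia. Smooth muscle and pericyte genes summed to 1917 to 2157 and 2236 to 2473, with 2 of 9 lower and 1 higher. Of 7 mast cell genes 3 were tested and called higher, 2 of them (Cpa3 and Mcpt4) tested only because the hypoxic groups were high. Their sum of 4.14 to 5.31 CPM in control and 8.38 to 9.69 in hypoxia was mostly Kit, a receptor other cells also express, with 68, 109 and 92 counts in control and 131, 132 and 93 in hypoxia. Cpa3, a mast cell protease, had 1, 2 and 0 counts in control and 15, 13 and 13 in hypoxia, while Tpsb2 and Fcer1a had none in any library. The part of these shifts in the values of the macrophage identity genes was not tested. 

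The pattern of the members over the 9 libraries was not restricted to immune genes. The 5 genes most like their mean by Pearson correlation were Pdk1 (r = 0.997), Nrp1 (0.997), Tpi1 (0.996), Popdc2 (0.996) and Rassf3 (0.996), none of them in the macrophage lists. Of 14248 genes compared, 1948 had r above 0.95, and all share the same libraries, with control set apart from the hypoxic groups. In hypoxia + rSRGN against hypoxia, the sole called gene among the other macrophage and myeloid genes was Tyrobp, the signalling adaptor DAP12. It had 15, 2 and 2 counts in hypoxia and 33, 18 and 13 with rSRGN, a log2 fold change of 1.68 with an adjusted p of 0.0426 and with groups that overlapped.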

How the data were processed

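RNA was poly(A)-enriched and sequenced on an Illumina platform, per the labels. The authors deposited raw fragment counts per gene, and the file header names featureCounts 2.0.1, paired-end counting over exons, GENCODE release 25 (GRCm38) and no strand option. The submitters' processing notes also name HISAT2 and mm10. All 9 count columns were used, and 0 were left out. Groups and replicate numbers came from the sample labels.

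Tests used edgeR 4.0.16 under R 4.3.3. After the filterByExpr filter and TMM scaling, one model with 3 group means was fitted to the 9 libraries. Quasi-likelihood p-values were adjusted by Benjamini-Hochberg over 16762 genes. Ratios of summed counts carry exact 95% intervals for counting error only. DESeq2 1.42.0, other scalings and filters, thinned libraries, a replicate block and leaving out each library were the alternatives. The members and the gene lists were chosen with earlier results of these data known. All genes of a list were counted where its counts are given. Those named were called genes, at most the 4 most abundant, and genes acting directly with a member. The genes named from the marker lists of other cells, those named as at or near 0, and Tyrobp were picked after their values were seen. Likeness was measured on log2 CPM (prior count 2) for genes of at least 1 CPM. Promoters came from RefSeq. One gene of the transcription factor list is not reported here. Figures were drawn with matplotlib 3.10.9.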

Additional observations from a re-analysis of the deposited data

How the results depend on the processing

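Of 54 counts of called members under alternative settings, 51 stayed within the same range, and of 508 values of single members with an adjusted p 503 kept their direction and their call by adjusted p and fold together. By adjusted p alone, Lyz2 in hypoxia + rSRGN against hypoxia was at 0.05 or above in 6 of 18 alternatives, and no other value changed its side. With at least 10 counts in every library only 3 members could be tested, and the count called lower was 3 in hypoxia against control and 3 in hypoxia + rSRGN against control. Without a fold limit, 1 member (Lyz2) was called in hypoxia + rSRGN against hypoxia. In that comparison the log2 fold change turned its sign for Adgre1 without hypoxia replicate 2 (3.60), C1qc without hypoxia replicate 3 (-0.0679), Cd14 without hypoxia + rSRGN replicate 1 (0.10) and Ptprc without hypoxia + rSRGN replicate 3 (-0.47), none of which was called. Their values over the libraries left out ran from -1.22 to 3.60 for Adgre1, from -0.0679 to 1.23 for C1qc, from -0.30 to 0.10 for Cd14 and from -0.47 to 1.26 for Ptprc. Leaving out each library in turn gave 10 to 10, 0 to 0 and 10 to 10 called members in the comparisons of hypoxia with control, hypoxia + rSRGN with hypoxia and hypoxia + rSRGN with control. Over all 17259 to 17501 genes tested, 4168 to 4431 were called lower, 321 to 699 called and 4088 to 4319 called lower. In the main fit 6 of the 10 members were tested only because control was high, so these counts say little about stability. With the replicate number as a block the counts were 10, 0 and 10, and 8550, 495 and 8096 over all genes. Same-numbered libraries did not deviate together, with correlations of deviations from -0.04 to 0.02 beside -0.05 to 0.05 for other numbers, so the number was not taken as a pairing. The fit of only the groups compared could test 4 members in hypoxia + rSRGN against hypoxia. Over all genes, the 525 calls of that comparison became 2790 without a fold limit and 321 without hypoxia replicate 3. Depth limits the 5 members that had single-digit counts in all hypoxic libraries, for which a ratio between the hypoxic groups rests on a few fragments.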
